A study of Mus musculus with 9 samples.

Results

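Myadm, Scrn2, Ywhaz, Fkbp1a, Tusc2, Trappc1, Wbp1, Cript, Fam189b and Higd2a are 10 mouse genes taken from the 19305 genes listed in either of 2 deposited tables. They were chosen as genes of basic cell functions whose values stood clearly higher in tumour cells cultured with Th17 cells than with Th0 cells. That difference is therefore described here without a test. Genes outside this set differed as clearly, since the 10 held places from 2 to 32 among the genes higher with Th17 cells. All 10 were listed in both tables and passed the filter on low values, a mean of at least 10, in every comparison. The cells were LLC1, the Lewis lung carcinoma line of the mouse, kept for 24 h in direct contact with artificially generated T cells at 1 T cell per LLC1 cell. The T cells were Th0 (the unpolarised controls), Th9 or Th17 helper cells, with 3 libraries in each of the 3 groups. CD4+ cells were then sorted away and RNA was taken from the cells that remained, and nothing in the labels tells if a group's 3 libraries are separate cultures. P-values here therefore measure only the spread between these libraries, which may be technical. LLC1 cells without T cells were not analysed here, so a low level with Th0 cells and a high level with Th17 cells cannot be told apart.

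Th9 and Th17 cells are CD4+ helper T cells polarised to secrete interleukin-9 and interleukin-17, and tumour cells in contact with them are exposed both to secreted cytokines and to surface ligands. The genes described here serve in basic functions of many cell types. Ywhaz encodes the zeta adaptor of the 14-3-3 family, which binds phosphorylated proteins, and Fkbp1a a prolyl isomerase that binds FK506 and rapamycin. Trappc1 encodes a subunit of the TRAPP tethering complex of vesicle traffic, Myadm a membrane protein of lipid rafts, Wbp1 a ligand of WW domains, and Fam189b a membrane protein. Higd2a encodes a mitochondrial factor of respiratory supercomplex assembly and Tusc2 a mitochondrial tumour suppressor. Cript encodes a protein that binds PSD-95 and belongs to the minor spliceosome, and Scrn2 is a member of the secernin family. A gene is often called housekeeping when its level is stable enough to serve as a reference. Of the 10 genes, Ywhaz alone is in the list of commonly used reference genes examined here, and expression of the others across tissues was not measured.

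Promoter sequences from RefSeq (GRCm38.p6) matched 7 of the 10 genes, all but Scrn2, Ywhaz and Trappc1. Those of Tusc2 and Fkbp1a are printed because these genes had the largest and the smallest difference between Th17 and Th0, and those of Cript and Wbp1 because they held several matches to the motifs searched. Each runs 5′ to 3′ on the gene's strand and stops before the gene begins in the tables. Capitals mark GC boxes (GGGCGG or CCGCCC) and CCAAT boxes (CCAAT or ATTGG).
Tusc2, chr9:107563005-107563254 (+ strand): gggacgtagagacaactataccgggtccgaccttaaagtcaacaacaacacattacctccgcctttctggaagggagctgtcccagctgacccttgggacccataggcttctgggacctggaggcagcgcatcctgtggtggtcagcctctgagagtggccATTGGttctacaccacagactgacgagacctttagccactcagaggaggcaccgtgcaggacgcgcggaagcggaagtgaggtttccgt
Fkbp1a, chr2:151542233-151542482 (+ strand): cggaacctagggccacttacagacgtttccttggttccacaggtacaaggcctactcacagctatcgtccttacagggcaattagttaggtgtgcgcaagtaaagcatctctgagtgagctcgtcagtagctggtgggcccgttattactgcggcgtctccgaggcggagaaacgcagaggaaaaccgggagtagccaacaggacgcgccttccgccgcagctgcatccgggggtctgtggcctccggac
Cript, chr17:87025311-87025549 (+ strand): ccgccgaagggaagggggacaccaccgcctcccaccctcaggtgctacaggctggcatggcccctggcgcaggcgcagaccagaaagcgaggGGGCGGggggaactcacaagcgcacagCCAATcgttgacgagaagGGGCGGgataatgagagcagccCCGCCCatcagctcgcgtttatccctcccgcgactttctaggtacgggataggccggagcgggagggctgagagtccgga
Wbp1, chr6:83121560-83121711 (- strand): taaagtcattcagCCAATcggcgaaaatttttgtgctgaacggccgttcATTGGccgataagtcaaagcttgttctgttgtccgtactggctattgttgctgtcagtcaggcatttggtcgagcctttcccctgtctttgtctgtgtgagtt

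No motif was shared by all 7 genes, of which Myadm has 4 promoter entries and the others 1 each. In the 250 bases before the start, read on both strands, a GC box stood in Cript and Higd2a, against 32.7% of all 32851 promoters. A CCAAT box stood in Tusc2, Wbp1 and Cript, against 33.8% of promoters. Wbp1 held 4 CCAAT boxes, which 0.84% of promoters reach, though 2 of them lie inside the gene as the tables give it and are not printed. Cript also held an ETS motif (CCGGAAG, 6.91% of promoters) and an NRF1 motif (3.74%). The ETS motif runs into the gene as the tables give it, so the printed sequence holds only its first bases. The Myadm entry nearest the gene's listed start held no match, while the other 3 entries held GC boxes and 2 of these, shifted by 1 base from each other, an NF-kB motif (1.41% of single promoters). TATAAA (12.4% of promoters) and the STAT motif TTCNNNGAA (7.02%) were found in none of the 7. These matches are letters in a window, and Tusc2 and Fkbp1a, at the 2 ends of the range, shared none of them.

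Libraries held about 12718928 to 17505334 reads, estimated from the steps between deposited values. The fewest reads behind any of the genes were about 41, for Tusc2 in Th0 replicate 1, and the most about 4326, for Ywhaz in Th17 replicate 2. Th0 replicate 1 stood apart, with 31.1% of its values on the RNA genes mt-Rnr1, mt-Rnr2 and Gm26917, against 14.9% to 21.8% in the other libraries. Summed over the 14 of 24 T cell markers listed in both tables, normalized counts were 103 to 229 with Th0 cells, 1447 to 2063 with Th9 cells and 77.2 to 98.9 with Th17 cells. Of the defining markers, Cd3g was at 0 in Th17 replicates 1 and 3 and averaged 319 ± 55.1 (SD, n = 3) in the Th9 libraries on the scale common to all libraries. Limma called 19 of 21 tested T cell markers higher with Th9 than with Th0 cells and 0 of 5 with Th17 cells (at an unadjusted p under 0.05, 0 higher and 1 lower), and the part of T cell RNA in the levels of the 10 genes was not tested. The B cell sum was 332, 148 and 101 with Th0 cells, 127, 128 and 112 with Th9 cells and 35.2 to 39.2 with Th17 cells. Over 5 myeloid markers the sum was 413, 237 and 253 with Th0 cells, 287 to 330 with Th9 cells and 224 to 244 with Th17 cells. Of these 5, limma called 1 higher (Cd14) and 1 lower (Lyz2) with Th9 cells, where 13.4% and 11.9% of all genes were. With Th17 cells 0 of the 5 were called, and 1 had an unadjusted p under 0.05, lower. The epithelial keratins Krt8 and Krt18 were detected. With Th9 cells limma called 1 of 2 tested epithelial markers lower, where 11.9% of all genes were. Krt8 fell by 0.97 (limma adjusted p = 3.16e-04), and Krt18 was not called at -0.32 (0.0899). Limma called 3 of 6 mesenchymal markers lower with Th9 cells, where 11.9% of all genes were. They were Col3a1 at -1.37 (limma adjusted p = 2.56e-06), Col1a1 at -1.68 (0.00554) and Sparc at -0.50 (0.00502). With Th17 cells limma called 0 of 4 epithelial and 0 of 6 mesenchymal markers (0 at an unadjusted p under 0.05). The part of these marker differences in the levels of the 10 genes was not tested. Epcam, Cdh1 and the myeloid markers Itgam and Adgre1 were not listed. In bulk RNA, fewer cells of a type and less RNA per cell cannot be told apart.

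With Th17 cells, each of the 10 genes was higher than with Th0 cells in every library, by 1.66-fold to 2.42-fold. The lowest Th17 value was at least 1.5 times the highest Th0 value for every gene. In the same comparison, every Th17 library lay above every Th0 library for 12.8% of the 14342 genes tested, and 1.58% were called, 1.19% higher and 0.39% lower. Since the genes were chosen on this contrast, nothing is read from these counts. The median difference over the 10 genes was 0.98 on the log2(value + 1) scale, against -0.0046 over all genes tested. In order of limma p-value, used here only as a rank, Myadm was at place 2 of the 7053 genes higher with Th17 cells. Wbp1 was at place 32, and the others lay between.

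**Figure D1:**
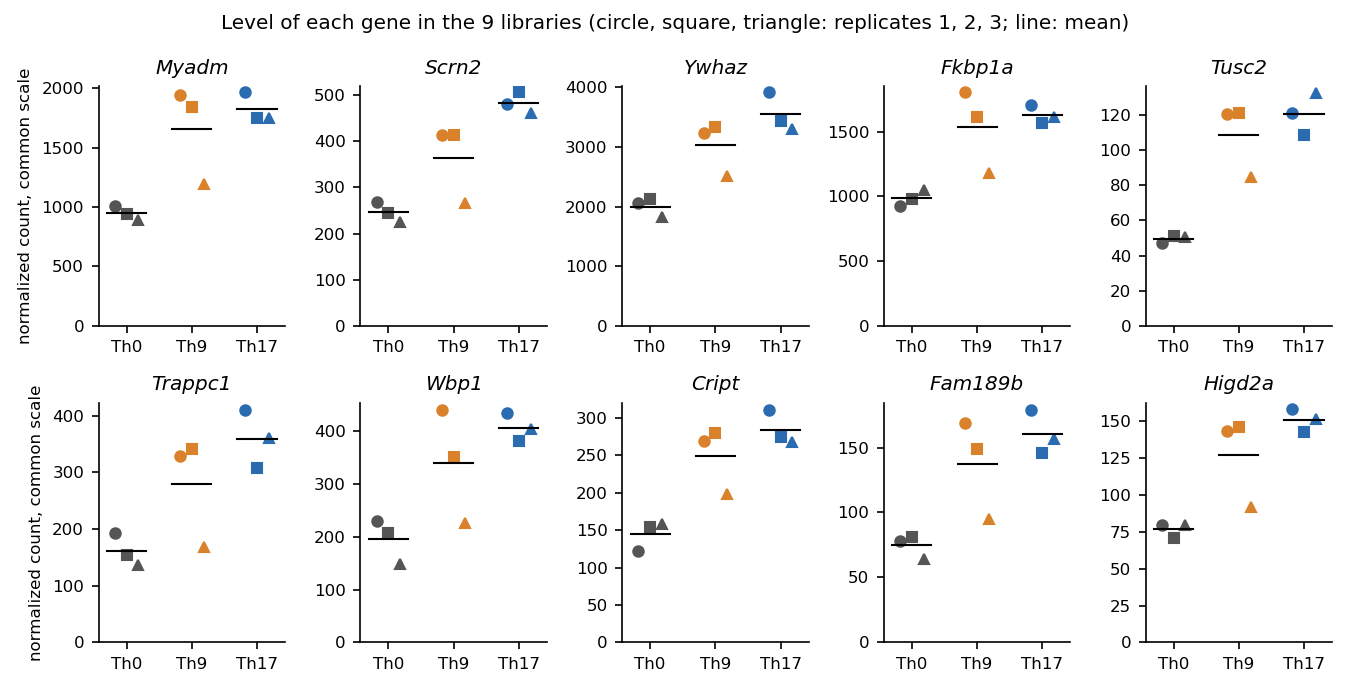
Normalized count of each of the 10 genes in the 9 libraries, on a scale common to all libraries. Symbols are libraries and lines are group means; the Th17 symbols all lie above the Th0 symbols, and the triangle of Th9 replicate 3 lies below both other Th9 symbols in every panel.

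Among signalling and folding proteins, Ywhaz was the most abundant. Its normalized counts were 2103, 2164 and 1856 with Th0 cells and 4003, 3520 and 3365 with Th17 cells, in replicates 1, 2 and 3. The groups did not overlap, and the highest Th17 library was replicate 1. The means were 2041 ± 163 and 3629 ± 333 (SD, n = 3), a log2 difference of 0.83 (SE 0.09). Fkbp1a had 949, 1000 and 1067 with Th0 cells and 1748, 1601 and 1648 with Th17 cells. Its 3 Th17 libraries varied by 4.51% of their mean (coefficient of variation), and its difference was the smallest of the 10 at 0.73 (SE 0.08). For the traffic subunit Trappc1, counts were 197, 157 and 140 with Th0 cells and 419, 315 and 369 with Th17 cells. Its Th0 libraries varied by 17.8%, more than those of Ywhaz, and the log2 difference was 1.16 (SE 0.14).

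Of the membrane and adaptor genes, Myadm had 1033, 965 and 908 with Th0 cells and 2010, 1792 and 1791 with Th17 cells. The libraries varied by 6.46% and 6.77% of their means, and the log2 difference was 0.94 (SE 0.08). Wbp1 had 235, 211 and 151 with Th0 cells and 443, 389 and 413 with Th17 cells. Its Th0 libraries were the most variable of the 10 genes, at 21.7%, with replicate 3 the lowest, and the difference was 1.08 (SE 0.15). Fam189b, one of the weakly expressed genes, had 80, 82 and 66 with Th0 cells and 183, 149 and 160 with Th17 cells. Its difference was 1.1 (SE 0.14), with Th17 replicate 1 the highest library.

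Of the mitochondrial and the remaining genes, Tusc2 had 48, 52 and 51 with Th0 cells and 124, 111 and 135 with Th17 cells. This was the largest difference of the 10 genes, 1.27 (SE 0.15) or 2.42-fold, at one of the lowest levels. Higd2a had 82, 73 and 81 with Th0 cells and 162, 146 and 155 with Th17 cells, a difference of 0.96 (SE 0.13). Both groups of Higd2a varied little, by 6.27% and 5.2%. Cript had 124, 157 and 161 with Th0 cells and 318, 280 and 274 with Th17 cells. Replicate 1 was the lowest of the Th0 libraries and the highest of the Th17 libraries for Cript, and the difference was 0.98 (SE 0.13). Scrn2 had 274, 250 and 230 with Th0 cells and 491, 517 and 470 with Th17 cells, a difference of 0.97 (SE 0.10) with no overlap.

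Per kilobase of the longest transcript, normalized counts with Th17 cells ran from 53.2 for Fam189b and 74.1 for Tusc2 to 828 for Fkbp1a and 1104 for Ywhaz. The order of the highest and lowest was the same with Th0 cells, at 620.7 for Ywhaz, 499.9 for Fkbp1a, 30.2 for Tusc2 and 24.7 for Fam189b. The genes thus spanned both weak and strong expression. Myadm, at 463 per kilobase with Th17 cells, and Higd2a, at 238 per kilobase, differed between the groups by 1.92-fold and 1.95-fold.

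With Th9 cells, all 10 genes rose against Th0 cells by limma with Benjamini-Hochberg adjustment over all genes, by 1.45-fold to 2.14-fold. In this comparison 25.2% of the 14475 genes tested were called, 13.4% higher and 11.9% lower. The Th0 libraries are the ones that served to choose the genes, so this count is not independent of the choice. The median difference was 0.75 on the log2(value + 1) scale, against -0.01 over all genes tested. Every Th9 library lay above every Th0 library for 7 of the 10 genes, against 21.4% of genes, and the exceptions were Scrn2, Trappc1 and Wbp1.

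Tusc2 had 47, 51 and 50 with Th0 cells and 120, 120 and 84 with Th9 cells. All Th9 libraries were above all Th0 libraries, and the log2 difference was 1.1 (SE 0.18, limma adjusted p = 0.00101). Ywhaz had 2045, 2118 and 1808 with Th0 cells and 3218, 3310 and 2501 with Th9 cells. The groups did not overlap, and the difference was 0.59 (SE 0.11, limma adjusted p = 0.00248). Myadm had 1005, 944 and 885 with Th0 cells and 1934, 1827 and 1190 with Th9 cells. Replicate 3 of the Th9 group was far below the other 2 but still above the Th0 range, and the difference was 0.77 (SE 0.15, limma adjusted p = 0.00271). Cript had 121, 154 and 157 with Th0 cells against 268, 278 and 197 with Th9 cells. The difference was 0.77 (SE 0.16, limma adjusted p = 0.00361), again with no overlap. Fkbp1a had 923, 979 and 1039 with Th0 cells and 1799, 1603 and 1170 with Th9 cells. Its difference was 0.61 (SE 0.13, limma adjusted p = 0.00525), and its Th9 libraries varied by 21.1% of their mean.

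The other 5 genes rose with larger adjusted p-values, from 0.0116 to 0.0346 by limma. Fam189b had 78, 81 and 64 with Th0 cells and 168, 148 and 94 with Th9 cells, without overlap. The log2 difference was 0.84 (limma adjusted p = 0.0116). Higd2a had 79, 71 and 79 with Th0 cells and 143, 145 and 91 with Th9 cells, and its difference was 0.69 (limma adjusted p = 0.0187). In both genes Th9 replicate 3 was above the Th0 range and the lowest of its group. Wbp1 had 229, 207 and 147 with Th0 cells and 437, 349 and 225 with Th9 cells, so that Th9 replicate 3 fell inside the Th0 range. Its difference was 0.76 (limma adjusted p = 0.023). Scrn2 had 267, 244 and 224 with Th0 cells and 410, 410 and 265 with Th9 cells, and its difference of 0.53 was the smallest of the 10 (limma adjusted p = 0.0264). Trappc1 had 192, 154 and 136 with Th0 cells and 328, 339 and 168 with Th9 cells. Its difference was 0.74 (limma adjusted p = 0.0346), and Th9 replicate 3 lay below Th0 replicate 1. These 5 genes lost the call when 1 library was left out. Of the 10 genes, 5 were called without Th9 replicate 1 or without Th9 replicate 2. Without Th0 replicate 2 or without Th0 replicate 3, 7 were called. Calls over all genes fell too, from 3653 to 1853 and 2078 without Th9 replicates 1 and 2. They were 3364 and 2533 without Th0 replicates 2 and 3.

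**Figure D2:**
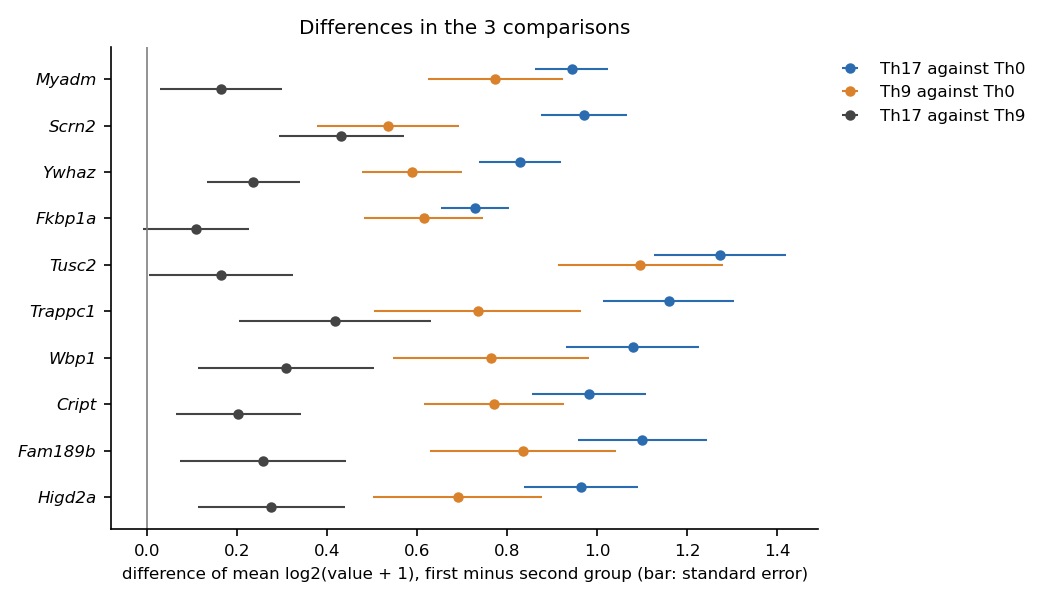
Difference of mean log2(value + 1) for each gene in the 3 comparisons, with bars of 1 standard error. The Th17 against Th0 points lie from 0.73 to 1.27, the Th9 against Th0 points from 0.53 to 1.1 and the Th17 against Th9 points from 0.11 to 0.43.

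Th9 replicate 3 was lower than the mean of the other 2 Th9 libraries for all 10 genes. On the log2(value + 1) scale it was lower by a median of -0.64, between -0.98 for Trappc1 and -0.38 for Ywhaz. Over all 14372 genes the median of this difference was 0.01, and 7.72% of genes were at or below -0.38. The level in Th9 replicate 3 lay above every Th0 library for 7 of the genes and below every Th17 library for all 10. In Th9 replicates 1 and 2, all 10 genes were above every Th0 library. At least 1 of these 2 libraries reached the Th17 range for 9 of the genes, the exception being Scrn2, and both did so for 7. The Th0 and Th17 ranges are those on which the genes were chosen, so these counts are not independent of the choice. Shares over all genes were not counted for them. Relative to the Th0 mean, the median log2 difference over the genes was 0.30 in Th9 replicate 3, 0.96 in Th9 replicates 1 and 2, and 0.97 in the Th17 libraries. Th9 replicate 3 also had the lowest T cell marker sum of its group, 1447 against 1718 and 2063, and the lowest share of values on the 3 RNA genes, 16.1% against 18.3% and 18.6%. The part of either in the lower levels was not tested.

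**Figure D3:**
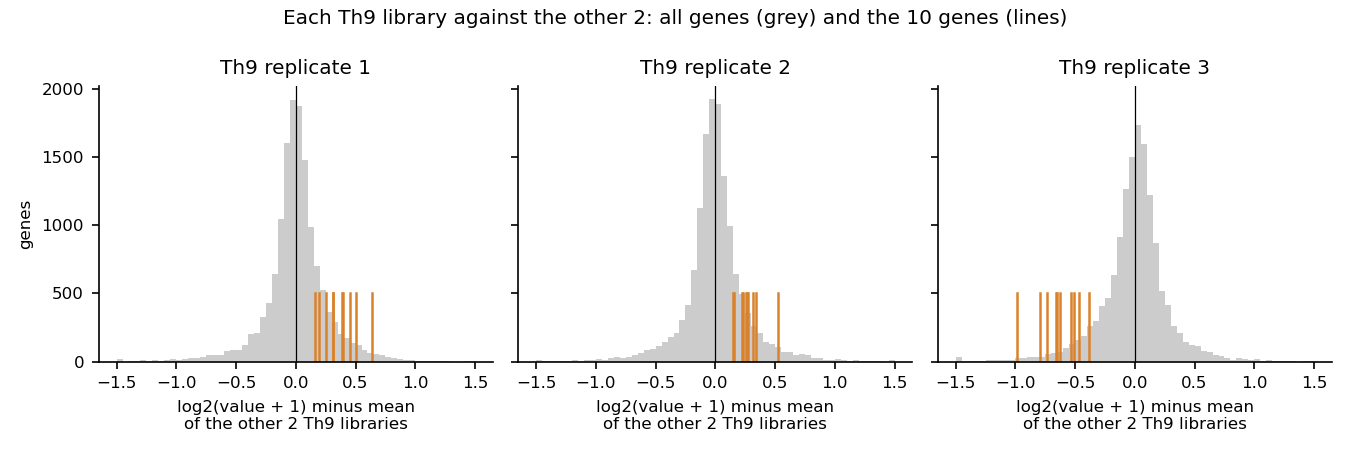
Each Th9 library against the mean of the other 2, as the difference in log2(value + 1), for all genes (grey bars, values past 1.5 in either direction gathered at the ends) and for the 10 genes (orange lines). The lines lie above 0 in replicates 1 and 2 and between -0.98 and -0.38 in replicate 3.

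Th17 and Th9 were also compared directly, in a comparison that takes no Th0 value into the difference. The spread behind its intervals and p-values was estimated over all 9 libraries, with Th0 among them. With the Th9 and Th17 libraries only, 2 of the 10 genes and 4754 of all genes were called, against 1 and 2993. Scrn2 was called higher with Th17 cells, by 0.43 on the log2(value + 1) scale (95% interval 0.14 to 0.73, limma adjusted p = 0.0386), where 20.8% of 14372 genes were called, 9.8% higher and 11% lower. Every Th17 library of Scrn2 lay above every Th9 library, as in 22.5% of genes, and no other of the 10 genes did so. The call of Scrn2 was lost without Th9 replicate 3, at 0.22 (limma adjusted p = 0.158), and without any 1 of the Th17 libraries, at limma adjusted p = 0.0775 to 0.132. The Th17 libraries took part in choosing the genes, so the direction of this comparison is not independent of the choice.

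The other 9 genes were not called, with differences from 0.11 for Fkbp1a to 0.42 for Trappc1. The interval for Trappc1 ran from -0.04 to 0.87 (limma adjusted p = 0.196). For Ywhaz the difference was 0.24 (0.01 to 0.46, limma adjusted p = 0.13) and for Wbp1 0.31 (-0.11 to 0.73, limma adjusted p = 0.307). Higd2a, Fam189b and Cript differed by 0.28 (-0.07 to 0.62), 0.26 (-0.14 to 0.65) and 0.20 (-0.09 to 0.50). Myadm and Tusc2 each differed by 0.16, with intervals of -0.12 to 0.45 and -0.18 to 0.50, and Fkbp1a by 0.11 (-0.14 to 0.36). These intervals do not show that the levels were alike with Th9 and Th17 cells.

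The same 3 Th0 libraries stand under both differences from Th0, so a low value in them raises both. Leaving out Th0 replicate 1, which stood apart, gave a median difference of 1.01 between Th17 and Th0 over the 10 genes, and leaving out any 1 of the 6 libraries gave 0.95 to 1.01. Relative to the other Th0 libraries, Th0 replicate 1 was above for 7 of the genes and below for 3, with a median of 0.10. Because the genes were chosen for a clear separation of these same libraries, these values describe the difference and do not bear on how far the Th0 libraries account for it. With no Th0 value in the difference, the median between Th17 and Th9 was 0.25, and 0.05 without Th9 replicate 3. A level that was low in all 3 Th0 libraries would give both differences from Th0 and no difference between Th17 and Th9, and it cannot be told apart here from a level raised by both kinds of T cell.

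**Figure D4:**
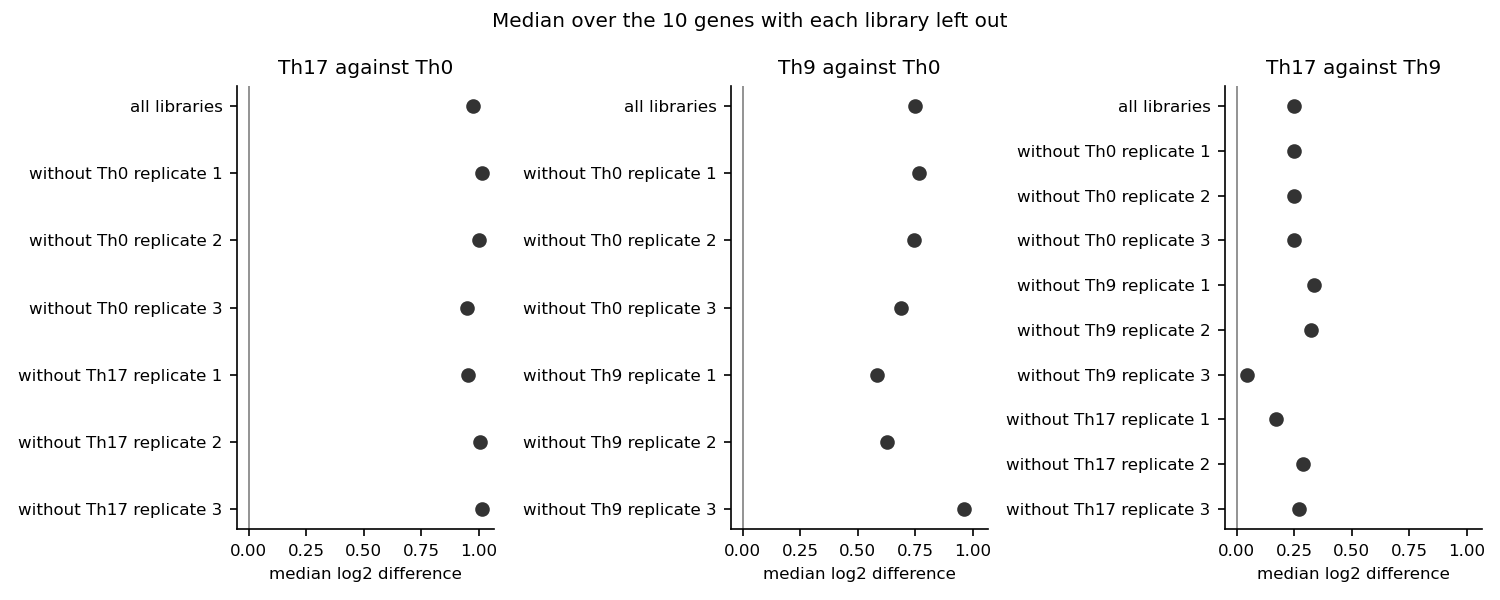
Median log2 difference over the 10 genes with all libraries and with each library left out, in the 3 comparisons. The Th17 against Th0 median stays between 0.95 and 1.01, whereas the Th17 against Th9 median drops to 0.05 without Th9 replicate 3.

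**Figure D5:**
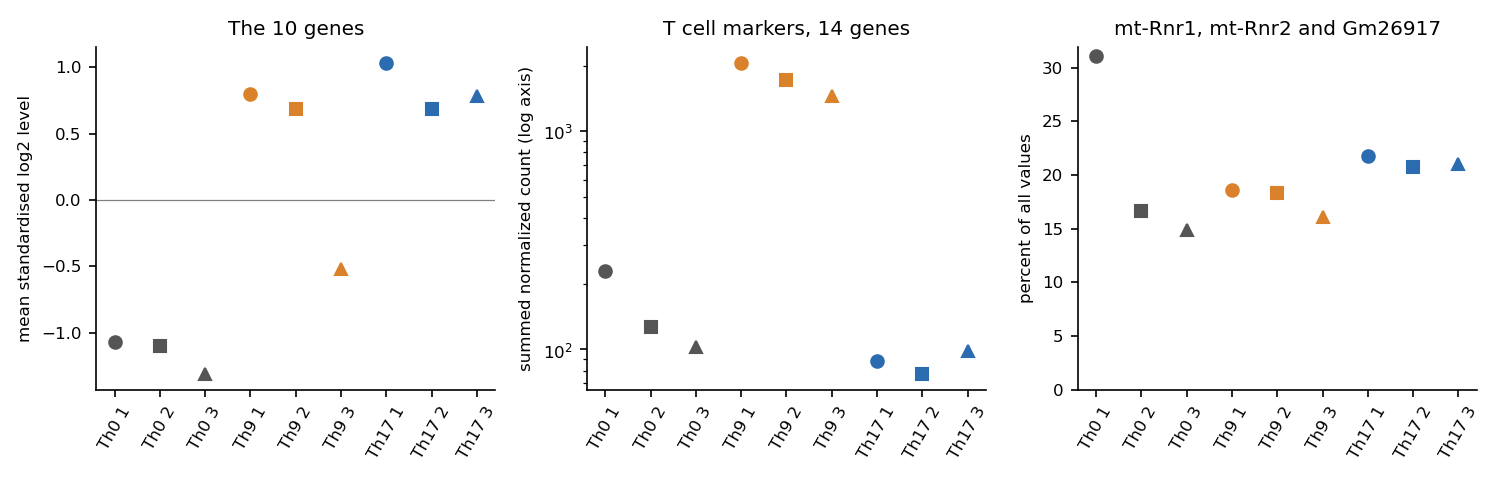
Mean standardised log2 level of the 10 genes, summed normalized counts of 14 T cell markers (log axis) and percent of all values on mt-Rnr1, mt-Rnr2 and Gm26917, in each library. Th0 libraries are lowest in the first panel, Th9 libraries reach 1447 to 2063 in the second, and Th0 replicate 1 is highest in the third at 31.1%.

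The 10 genes followed each other across the 9 libraries. The Pearson correlation of each with the mean profile of the other 9 ran from 0.946 for Cript to 0.994 for Myadm, as a description of libraries that share their groups and of genes chosen for one difference. Among 7355 other genes with a mean of at least 200, those whose profile was most like the mean of the 10 were Psap (r = 0.997), Capzb (0.994), Ythdf1 (0.984), Sp2 (0.984) and Ganab (0.982), each over 9 libraries. Psap stood at 1339 to 1435 in the Th0 libraries, 1604 in Th9 replicate 3, and 1961 to 2072 with Th17 cells. The longest transcripts of the 10 genes had a median length of 1784 bases (648 to 4028) against 3115 over 14308 genes. Those of Myadm, at 4028, and Ywhaz, at 3288, were longer than that median. The GC content of the 10 was 42.8% to 60.8%, with a median of 54.0% against 49.1%.

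Genes related to the 10 by family, complex or partners were examined in the same fits. Of 94 related genes tested, limma called 1 higher and 1 lower with Th17 cells than with Th0 cells, and 13 and 11 had an unadjusted p under 0.05. With Th9 cells 7 of 93 were called higher and 12 lower, where 13.4% and 11.9% of all genes were. Between Th17 and Th9 cells 9 of 93 were called higher and 3 lower, where 9.8% and 11% of all genes were. The 1 higher with Th17 was Gapdh, the glycolytic enzyme used as a reference, at 0.42 (limma adjusted p = 0.027), and its call was lost in 5 of 14 alternatives. The 1 lower was Zrsr2, a factor of the minor spliceosome like Cript, at -0.46 (limma adjusted p = 0.0215), also lost in 5 of 14.

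Beside Ywhaz, none of the 6 other 14-3-3 genes was called by limma with Th17 cells, and 1 had an unadjusted p under 0.05, lower. With Th9 cells Sfn fell by 1.03 (limma adjusted p = 0.0048) and Ywhah by 0.41 (0.0272, lost in 6 of 14 alternatives), whereas Ywhaz rose. Beside Fkbp1a, 3 of 14 FKBP genes fell with Th9 cells, led by Fkbp2 at -0.80 (limma adjusted p = 5.53e-04), with Fkbp8 and Fkbp5 lost in 7 of 14 alternatives. With Th17 cells 0 of the 14 were called, and 1 higher and 4 lower had an unadjusted p under 0.05. Fkbp2 was called higher with Th17 than with Th9 cells, by 0.52 (limma adjusted p = 0.00523). Beside Scrn2, both other secernins fell with Th9 cells, Scrn3 by 0.92 (limma adjusted p = 0.00101) and Scrn1 by 0.98 (0.0348, lost in 5 of 13 alternatives). Both were called higher with Th17 than with Th9 cells, Scrn3 by 0.96 (limma adjusted p = 1.03e-04) and Scrn1 by 0.81 (0.0483, lost in 10 of 18 alternatives), as was Scrn2. Of 13 other TRAPP genes, none was called against Th0 in either comparison by limma, and 1 higher and 1 lower had an unadjusted p under 0.05 with Th17 cells, 1 and 4 with Th9 cells. Between Th17 and Th9 cells Trappc3 was called higher by 0.35 (limma adjusted p = 0.0217) and Trappc5 lower by 0.34 (0.0341). Each of these 2 calls was lost in 6 of 19 alternatives. For Higd2a's 6 tested partners of respiratory assembly the counts called were 0 in all 3 comparisons, with 2, 2 and 0 at an unadjusted p under 0.05 in either direction. Of Cript's 10 partners, Dlg4 rose with Th9 cells by 0.25 (limma adjusted p = 0.0405, lost in 6 of 14 alternatives), while Zrsr2 fell by 0.60 (4.62e-04) and Dlg2, at a mean of 5.0 against 18.3, by 1.66 (0.00948). Between Th17 and Th9 cells Dlg2 was called higher by 2.20 (limma adjusted p = 2.26e-04) and Dlg4 lower by 0.32 (0.00464). Among relatives of Wbp1, Fam189b and Myadm, Wbp2 rose with Th9 cells by 0.39 (limma adjusted p = 0.0415, lost in 4 of 14 alternatives), and Wwp1 was higher with Th17 than with Th9 cells by 0.39 (0.00275). Of 8 tested neighbours of Tusc2 in its tumour suppressor cluster, limma called 0 in the 3 comparisons, with 1, 1 and 0 at an unadjusted p under 0.05.

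Of the 26 reference genes without Ywhaz, the median difference between Th17 and Th0 was 0.05. Limma called 1 of them higher and 0 lower, where 1.19% and 0.39% of all genes were. At an unadjusted p under 0.05 by limma, 8 were higher and 1 lower. Ywhaz itself differed by 0.83, but it was chosen on this contrast. With Th9 cells 5 of the 26 were called higher, among them Gapdh at 0.55 and Pgk1 at 0.50, and 3 lower, led by Reep5 at -0.67. In that comparison 13.4% of all genes were called higher and 11.9% lower.

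Tusc2 (9:107563255-107566112, + strand, GRCm38) shares 2858 bases with the listed gene Gm9917 on the opposite strand. Gm9917 had means of 95.7 with Th0 and 85.0 with Th17 cells and was not called. Since the strand used in counting is not given in the sources used here, reads of Tusc2 and Gm9917 may not be separable. Myadm lies at 7:3289080-3300442 (+ strand). The remaining 8 genes overlap no listed gene: Scrn2 (11:97029938-97033958, +), Ywhaz (15:36770770-36794547, -), Fkbp1a (2:151542483-151561692, +), Trappc1 (11:69323980-69325793, +), Wbp1 (6:83119044-83121559, -), Cript (17:87025550-87035810, +), Fam189b (3:89183143-89189295, +) and Higd2a (13:54590207-54591158, +).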

How the data were processed

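RNA of 9 libraries was prepared with a stranded total RNA kit from 1 µg, per the labels' protocols. The submitters' processing notes name STAR 2.4.0a, featureCounts 1.4.5-p1, Subread, DESeq2 1.62, mm10 and GRCm38, without roles. The authors deposited 2 tables, with Th0 in both, whose values are a score, normalized counts rounded to whole numbers and scaled separately per table (Th0 values differ by factors of 1.02 to 1.03). Raw counts were not used here.

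With R 4.3.3 and limma 3.58.1, log2(value + 1) was fitted with a trend where a gene's mean reached 10, within each table. Th17 against Th9 was fitted over all 9 libraries after median-of-ratios scaling. An adjusted p under 0.05 over all genes tested is a call. An exact permutation test of 3 against 3 libraries cannot go below 0.1. The fits were tested on simulated data with a fixed spread and no library that stood apart, so that test does not cover a library such as Th0 replicate 1. The members and gene lists were chosen with earlier results of these data known. The rule for named genes was the 10 members, called related genes, genes overlapping a member and the 5 genes most alike in profile; cell type markers were chosen for naming after their values were seen. Columns left unused numbered 0. An item under this rule is not reported here.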

Additional observations from a re-analysis of the deposited data

How the results depend on the processing

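With 1 library left out, the differences of the 10 genes for Th9 against Th0 stayed above 0 in 60 of 60 values. For Th17 against Th9, 87 of 90 stayed above 0. Those for Th17 against Th0 could not turn, since the libraries do not overlap in the genes chosen. The same held for 7 of the 10 genes for Th9 against Th0 and for Scrn2 for Th17 against Th9. Leaving out a Th0 library could not change any difference between Th17 and Th9. The 3 below 0 came without Th9 replicate 3: Myadm -0.055 (limma adjusted p = 0.738), Fkbp1a -0.069 (0.658) and Tusc2 -0.0056 (0.987). With 1 library left out, Myadm ran from -0.055 to 0.29 and Fkbp1a from -0.069 to 0.24 between Th17 and Th9. Under the other settings the differences of the 10 genes in these 2 comparisons stayed above 0. The median over the genes was 0.58 to 0.96 for Th9 against Th0 and 0.05 to 0.34 for Th17 against Th9 with 1 library left out. With 1 library left out, 5 to 10 of the 10 genes were called for Th9 against Th0, beside 1853 to 5336 of all genes. For Th17 against Th9, 0 to 2 of the 10 were called, beside 1987 to 4539 of all genes. In the latter, equal library totals gave 0 calls (1 at an unadjusted p under 0.05), equal totals leaving out the 3 RNA genes gave 0 (1), and the Th9 and Th17 libraries alone gave 2; without Th0 replicate 1, Ywhaz joined Scrn2.

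Of all genes, 226 were called for Th17 against Th0 (170 higher, 56 lower). The count was 139 with equal totals (119 and 20), 447 with equal totals leaving out the 3 RNA genes, 3361 with array weights (1572 and 1789), and 16 to 2352 with 1 library left out: 2352 without Th0 replicate 1, 62 without Th0 replicate 3, and 19, 48 and 16 without Th17 replicates 1, 2 and 3. For Th9 against Th0 it was 3653 (1937 and 1716), 6628 with array weights and 1853 to 5336 with 1 library left out; equal totals gave 2252 higher and 794 lower and moved the median of all genes from -0.01 to 0.096. For Th17 against Th9 it was 2993 (1409 and 1584), 4981 with array weights, 4754 with the Th9 and Th17 libraries only and 1987 to 4539 with 1 library left out; equal totals gave 681 and 1683. The cause was not tested.

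For libraries with equal replicate numbers, correlations of their deviations were 0.11, -0.01 and 0.14 for Th0 with Th9. Unequal numbers gave -0.13 to 0.04. For Th0 with Th17 they were -0.05, -0.10 and 0.05, against -0.05 to 0.10 for unequal numbers. These values do not settle whether equal replicate numbers mark pairs. With a replicate block, 262, 4076 and 2865 genes were called in the 3 comparisons, and 10 and 1 of the 10 genes for Th9 against Th0 and Th17 against Th9. The block could not change the medians of the genes, 0.98, 0.75 and 0.25, since every group holds the same 3 replicate numbers. Only the standard errors and p-values, and with them the calls, could change. Depth limits Tusc2 most, at about 41 reads in its shallowest library.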
